A study of Homo sapiens with 22 samples.

Results

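The genes of gp130 signalling described here, 10 in all, were followed by symbol through the data of a study on drug-naive melanoma cells: 4 ligands (IL11, IL6, LIF and CLCF1), the shared receptor chain IL6ST (gp130), 4 ligand-specific receptor chains (IL11RA, IL6R, LIFR and OSMR) and the feedback inhibitor SOCS3. They are 10 of the 33538 genes counted in the first single-cell experiment and 10 of the 36601 genes counted in the other two. The study used BRAF-mutant melanoma lines, each a clone grown from a single cell. It asked what makes cells switch between 2 states that exist before any drug. Primed cells are rare and more likely to become resistant to BRAF and MEK inhibition, while the others are drug-susceptible. The first experiment profiled untreated WM989 cells that carried lineage barcodes, grown on from a sample sorted as primed by EGFR and NGFR and from a mixed sample. The proportion of primed cells is thus not that of an unsorted culture. What set it after growth was not tested. The second profiled untreated WM983B cells, another melanoma line. The third profiled WM989 cells left untreated or given TGFB1 (the ligand TGF-beta 1), TGFBRi (a TGF-beta receptor inhibitor) or PI3Ki (a PI3K inhibitor), with 2 libraries for each condition, named Mix and Primed in the labels and r1 and r2 in the cell tables. Which name goes with which was not settled, so whether a sorted starting population had a part in the differences between r1 and r2 was not tested. The labels give no dose or duration, which the study's methods do state. For the treatments, cells of a common starting well were divided among the 4 conditions, so same-numbered libraries share a starting population. ATAC-seq, which cuts open chromatin, was done with 3 libraries each on WM989 cells sorted as EGFR-high, NGFR-high, high for both, or Mix. The study's methods describe the last as cells negative for both surface markers.

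Cytokines of the interleukin-6 family signal through gp130. IL6 and IL11 bind their own receptor chain (IL6R or IL11RA) and then a gp130 pair, LIF joins LIFR to gp130, oncostatin M joins OSMR or LIFR to gp130, and CLCF1 acts through CNTFR, LIFR and gp130. The joined chains activate JAK kinases, which phosphorylate STAT3, and STAT3 induces SOCS3, which binds gp130 and shuts the signal down. In melanoma and other solid tumours these cytokines are made by tumour cells as well as by the stroma.

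The first experiment held 12531 cells with 750662838 UMIs (unique transcript counts), the second 1449 cells with 102738398 UMIs and the third 40021 cells, with 70239657 to 122420544 UMIs per library. Levels are given as CPM, the UMIs of a gene scaled to 1000000 UMIs of the cells summed. These are counts of transcript ends, so they do not scale with transcript length. The states are the study's own groups of clusters, built on the same counts, so differences between states are given as descriptions with no test. The labels fitted the markers in WM989: primed and drug-susceptible cells held 42.3 and 0.47 CPM of AXL, 48.1 and 3.37 CPM of EGFR, and 7.09 and 130 CPM of SOX10. Of 5 markers of other cell types, PTPRC, CD3E, CD79A and EPCAM were at 0.11 CPM or less in both states, while the endothelial marker PECAM1 stood at 22.8 and 0.18 CPM in that order. Its part in the results was not tested. In WM983B the fit was weaker, with 3 of 4 primed markers at least 2-fold higher and 2 of 4 drug-susceptible markers at least 2-fold lower in primed cells. Between libraries of the first experiment 19 cell barcodes were shared, and 194 in the third, of all barcodes counted.

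In untreated WM989 cells, 8 of the 9 members that reached 1 CPM in either state were at least 2-fold higher in primed than in drug-susceptible cells in both replicates, where 12.0% of 13194 genes were, and 19.0% were 2-fold apart in either direction. The 4 ligands reached 1 CPM in primed cells alone, so that their place in this count follows from their primed level. Of the 5 members that reached 1 CPM in drug-susceptible cells, 4 were at least 2-fold higher in primed ones. All 4 ligands, gp130, LIFR, OSMR and SOCS3 were on the higher side, IL6R was on the lower side at less than 2-fold, and IL11RA stayed below 1 CPM in both states. The members were chosen with earlier results of these data known. Each count of members set against all genes, here and below, is therefore a description.

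Among the ligands IL11 was the most abundant. IL11, a cytokine known for bone, platelet and fibrosis biology, stood at 120.2 CPM over the 2843 primed cells and at 0.81 CPM over the 9688 drug-susceptible ones, 149-fold apart. Replicate r1 gave 107 and 0.48 CPM in that order, and r2 gave 134 and 1.34 CPM. The states stood apart in both replicates. By well, primed cells ran from 58.9 to 154 CPM of IL11 over the 8 wells. Per the study's methods, the sorted primed cells and the mixed cells were each divided between wells at chip loading. Wells loaded from the same suspension are not separate cultures, and which wells these are was not settled. Drug-susceptible cells ran from 0.25 to 1.04 CPM in 6 wells and reached 4.18 and 5.07 CPM in wells 5 and 6. In those wells most cells were primed, 325 of 408 and 447 of 581. Wells 5 and 6 may share a cell suspension, so their values are not taken as independent. Whether IL11 RNA free in the droplets took part in these last values was not tested.

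The gene lies on the minus strand of chr19:55364382-55370463 (hg38). Its promoter is printed because IL11 stood far apart between the states and because the chromatin around its start differed between the sorted populations, as described further on. The 250 bases before the start (RefSeq, GRCh38.p14, chr19:55370464-55370713, minus strand, 67.2% G or C) are given 5′ to 3′, with capitals marking an AP-1 site, TGANTCA:
IL11 promoter: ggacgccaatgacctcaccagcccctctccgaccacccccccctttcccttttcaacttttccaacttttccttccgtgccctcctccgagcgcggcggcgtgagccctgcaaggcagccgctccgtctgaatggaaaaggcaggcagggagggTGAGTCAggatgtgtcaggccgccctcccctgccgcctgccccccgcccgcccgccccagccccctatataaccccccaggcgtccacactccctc
The first base of this match lay 96 bases before the start. AP-1 is the dimer of FOS and JUN proteins through which many growth factor signals reach promoters. On either strand, 6.57% of 35116 promoters of the same length held the letters TGANTCA. A match is a description of the letters and shows no binding.

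IL6, the founding member of the family and an inflammatory cytokine, stood at 18.6 CPM among primed cells against 0.15 CPM among drug-susceptible ones, 125-fold apart. Its primed level differed between replicates, with 7.09 CPM in r1 and 30.7 CPM in r2, and by well it ran from 4.34 CPM in well 4 to 41.7 CPM in well 5. The drug-susceptible levels were 0.07 and 0.28 CPM in r1 and r2. Thus the replicates of primed cells differed severalfold for IL6 and the states did not overlap.

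The IL6 gene lies on the plus strand of chr7:22727200-22731998 (hg38). The 250 bases before its start (RefSeq, GRCh38.p14, chr7:22726950-22727199, plus strand, 47.6% G or C) are shown for the contrast with IL11, with capitals marking a match to an NF-kB site, GGGNNTTTCC:
IL6 promoter: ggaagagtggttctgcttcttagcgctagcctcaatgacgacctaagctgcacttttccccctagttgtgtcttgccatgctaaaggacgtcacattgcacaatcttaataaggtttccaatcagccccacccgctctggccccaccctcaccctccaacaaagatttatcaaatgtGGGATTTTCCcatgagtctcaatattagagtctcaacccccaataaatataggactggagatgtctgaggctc
The match began 73 bases before the start. NF-kB is the transcription factor of inflammatory signalling, and 1.73% of the 35116 promoters held these letters on either strand. Of the 8 members with a promoter in the RefSeq table, IL11 was the one with an AP-1 match, IL6 the one with an NF-kB match, and LIFR the one with a STAT match (TTCNNNGAA, found in 6.57% of promoters). The STAT letters in LIFR read TTCCTTGAA and began 165 bases before the RefSeq start, which lies 38759 bases from the start used for LIFR below. For SOCS3 the RefSeq start lies 848 bases from the start used below. The 250 bases before that other SOCS3 start were not searched. None of the 8 held the SMAD palindrome GTCTAGAC, found in 0.18% of promoters. LIF and CLCF1 are not in the table.

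LIF, a cytokine known for keeping mouse embryonic stem cells undifferentiated, stood at 20.4 CPM among primed cells of WM989 against 0.84 CPM among the drug-susceptible ones, 24.4-fold apart. Its primed level was 11.04 CPM in r1 and 30.1 CPM in r2, against 0.59 and 1.23 CPM in drug-susceptible cells. CLCF1, a neurotrophic ligand, was low throughout, at 3.96 CPM among primed cells against 0.10 CPM among the others. Like IL11, these 3 ligands were higher in r2 than in r1 primed cells.

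IL6ST encodes gp130, the chain that every one of these ligands needs. It stood at 152 CPM among primed WM989 cells of the first experiment against 17.3 CPM among drug-susceptible ones, 8.80-fold apart. Replicates r1 and r2 gave 101 and 206 CPM in primed cells and 13.4 and 23.6 CPM in drug-susceptible cells. Its primed level was thus above that of IL11 in r2 and below it in r1, and among untreated primed cells of the third experiment IL6ST stood at 93.8 CPM and IL11 at 110.02 CPM. Unlike the ligands, gp130 was thus read in quantity in both states.

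The ligand-specific chains did not move together. LIFR, the partner of gp130 for LIF, was 9.42-fold higher in the primed state, at 13.5 against 1.44 CPM. OSMR, the oncostatin M chain, was 4.71-fold higher there, at 43.8 against 9.30 CPM. IL6R, the chain that IL6 itself binds, lay on the other side, with 7.94 CPM in the primed and 15.3 CPM in the drug-susceptible state, 1.92-fold higher in the latter. IL6R was at 7.23 and 8.67 CPM in r1 and r2 primed cells and at 13.1 and 18.8 CPM in drug-susceptible cells, so the lower state did not overlap the higher one. IL11RA, the chain that IL11 binds, was at 0.59 and 0.26 CPM in the same order. It was thus 2.22-fold higher in primed cells (2.28-fold in r1 and 2.16-fold in r2), at levels too low to be counted above. The primed cells, with the higher IL11, therefore carried little IL11RA RNA.

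SOCS3, the feedback inhibitor, stood at 19.9 CPM among primed cells against 3.97 CPM among drug-susceptible ones, 4.997-fold apart. In contrast to the ligands it was higher in r1 than in r2 primed cells, at 24.6 and 14.9 CPM. The drug-susceptible values were 3.37 and 4.95 CPM.

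**Figure D1:**
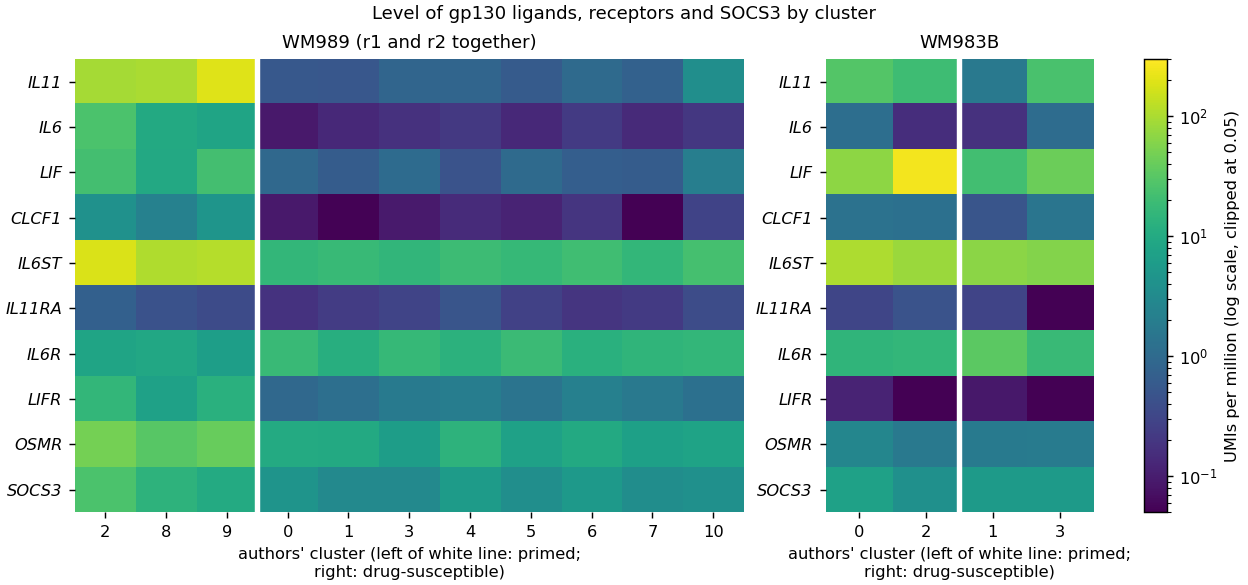
CPM of the 10 members in each cluster of untreated WM989 (11 clusters, left) and WM983B (4 clusters, right), with primed clusters to the left of the white line in each panel. IL11 reached 197 CPM in primed cluster 9 of WM989 and IL6 25.6 CPM in cluster 2, while LIF reached 258 CPM in cluster 2 of WM983B.

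The primed cells of WM989 form 3 clusters, and the ligands did not share 1 peak among them. IL11 was highest in cluster 9, at 197 CPM, against 92.7 CPM in cluster 2 and 100.05 CPM in cluster 8. IL6 was highest in cluster 2, at 25.6 CPM, against 9.99 CPM in cluster 8 and 7.91 CPM in cluster 9. LIF stood at 22.4 CPM in clusters 2 and 9 and at 9.64 CPM in cluster 8. The chains gp130, LIFR and OSMR and the inhibitor SOCS3 were highest in cluster 2, with gp130 at 182 CPM there against 105 and 114 CPM in clusters 8 and 9. Among the 8 drug-susceptible clusters IL11 ran from 0.53 to 3.74 CPM, with the highest value in cluster 10, and IL6 from 0.09 to 0.22 CPM. IL6R ran from 11.8 to 18.6 CPM in the drug-susceptible clusters and from 6.63 to 9.29 CPM in the primed ones.

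The ligands were spread unevenly over the primed cells. At least 1 UMI of IL11 was present in 74.9% of the primed WM989 cells and 3.11% of the drug-susceptible ones, whose median depths were 58253 and 52835 UMIs. With every cell thinned to 10000 UMIs the shares were 40.8% and 0.63%. For IL6 they were 28.9% and 0.78% before thinning and 8.51% and 0.17% after it, and for LIF 33.5% and 4.14% before and 11.01% and 0.73% after. For gp130 the shares before thinning were 95.04% and 55.5%. The 10% of primed cells with the most UMIs of a gene held 81.0% of the IL6 UMIs, 73.8% of LIF and 60.2% of IL11, against 39.7% of gp130 and 32.4% of OSMR. A single primed cell held 495 IL11 UMIs and another 295 IL6 UMIs, while the median primed cell held 2 and 0. Intervals and shares of this kind cover counting error only.

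Ligand and receptor RNA was found in the same cells for some pairs more often than the product of the separate shares. Among primed WM989 cells, 71.8% held UMIs of both IL11 and gp130, with a product of 71.2%, and 3.20% held both IL11 and IL11RA, with a product of 2.90%. Both products lay within the exact binomial intervals. IL6 and IL6R were found together in 13.1% of cells (95% exact binomial interval 11.8 to 14.3%), where the product is 10.3%. LIF and LIFR were together in 19.3% of cells (17.8 to 20.8%), with a product of 15.6%. For both of these pairs the product lay below the interval in r2 and within it in r1. The pair of ligands IL6 and LIF was found in 14.4% of cells, with a product of 9.67%, and within replicates the values were 6.57% against 4.66% in r1 and 26.2% against 20.4% in r2. Deeper cells show more genes of any kind, and these shares were not thinned.

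In WM983B, 4 of the 8 members that reached 1 CPM were at least 2-fold higher in primed cells, where 2.87% of 13769 genes were, and 4.24% were 2-fold apart in either direction. The 4 were the ligands again, of which IL6 and CLCF1 reached 1 CPM in primed cells alone. Of the 6 members that reached 1 CPM in drug-susceptible cells, 2 were higher, IL11 and LIF. IL11 stood at 27.7 CPM among primed cells against 4.93 CPM among the others (5.61-fold), LIF 93.5 and 24.6 CPM (3.79-fold), IL6 1.02 and 0.30 CPM (3.45-fold) and CLCF1 1.31 and 0.63 CPM (2.08-fold). The order of the ligands differed from WM989, with LIF and not IL11 the highest. IL6R again lay lower in primed cells, at 15.0 against 31.4 CPM, and here passed 2-fold. In G1 cells alone the fold was 2.86 for IL11 and 8.12 for IL6. There CLCF1 was at 0.69 CPM in primed cells, 1.54-fold apart, and was no longer counted. With mean CPM per cell IL6 was at 0.97 CPM in primed cells and was not counted either. The 74 primed cells with the most IL11 UMIs held 92.7% of the 1351 in the 731 primed cells, and 1 cell held 252. For IL6, 1 primed cell held 16 of the 50 UMIs, and the shares of cells with an IL6 UMI were 2.74% among primed and 2.23% among drug-susceptible cells. There was 1 library of this line, so none of these differences has a replicate check.

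The other chains of WM983B stood closer together between the states. IL6ST stood at 98.5 CPM among primed cells against 65.8 CPM, OSMR 2.60 and 1.84 CPM, and SOCS3 6.84 and 5.69 CPM, each less than 2-fold apart. LIFR was nearly silent in this line, with 0.10 and 0.07 CPM. LIF was at 258 CPM in the 91 cells of primed cluster 2 and at 68.4 CPM in the 640 cells of primed cluster 0. IL11 divided the drug-susceptible cells too, with 25.0 CPM in the 90 cells of cluster 3 and 1.70 CPM in the 628 cells of cluster 1. In cluster 3, 79 cells were assigned to the cell cycle phase G2M, at 27.2 CPM. The 215 G2M cells of cluster 1 stood at 2.43 CPM.

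**Figure D2:**
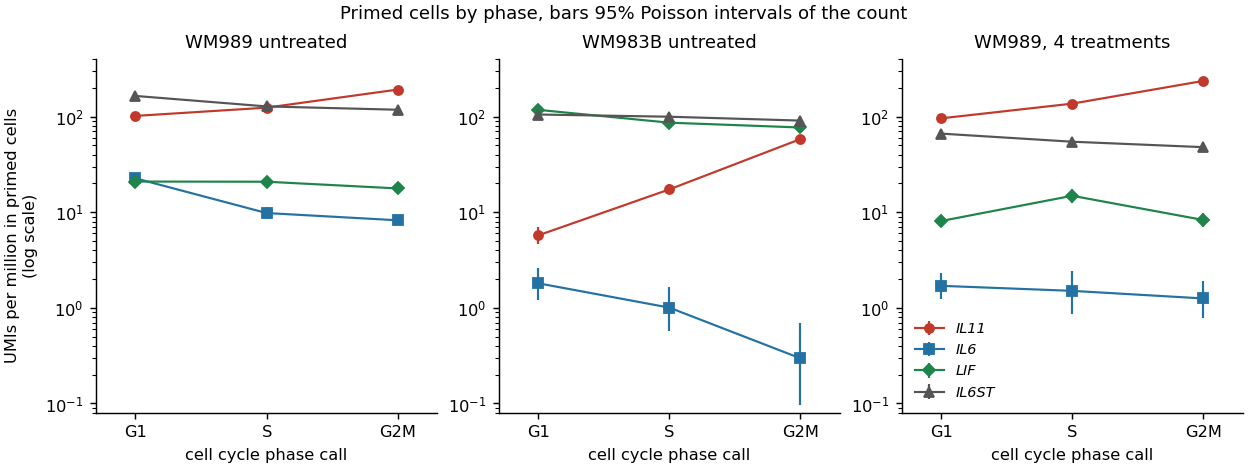
CPM on a log axis of IL11, IL6, LIF and IL6ST in primed cells by cell cycle phase, as the study's cell tables assign it, in the 3 single-cell experiments. IL11 was higher in G2M than in G1 in each, at 192 and 102 CPM in the first, 58.3 and 5.73 CPM in WM983B, and 236 and 96.0 CPM in the third.

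Within primed cells IL11 differed between the cell cycle phases that the study assigned from expression. In WM989 IL11 stood at 102 CPM in G1, 124 CPM in S and 192 CPM in G2M. Replicate r1 gave 86.4, 101 and 210 CPM in that order, and r2 gave 119, 146 and 177 CPM. In WM983B the levels were 5.73, 17.3 and 58.3 CPM. In the third experiment IL11 was higher in G2M than in G1 primed cells in 8 of 8 libraries, for example 43.0 CPM in G1 and 179 CPM in G2M of untreated r1. The fewest cells behind such a value were the 4 G2M cells of PI3Ki r1.

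IL6 went the other way in primed cells of WM989 and WM983B. IL6 was at 22.6 CPM in G1 and 8.24 CPM in G2M of WM989 primed cells, lower in G2M in both replicates, and at 1.81 and 0.30 CPM in WM983B. The WM983B values rest on 29 and 5 UMIs from 1 library, where 1 primed cell held 16 IL6 UMIs. Drug-susceptible WM983B cells stood at 0.22 CPM in G1 and 0.47 CPM in G2M, from 3 and 11 UMIs. For gp130 the WM989 levels were 165 CPM in G1 and 118 CPM in G2M. The median depth of WM989 primed cells was 54676 UMIs in G1 and 71070 UMIs in G2M. Phase and cluster overlap, since clusters were built on the same counts, and their parts in these values were not told apart.

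**Figure D3:**
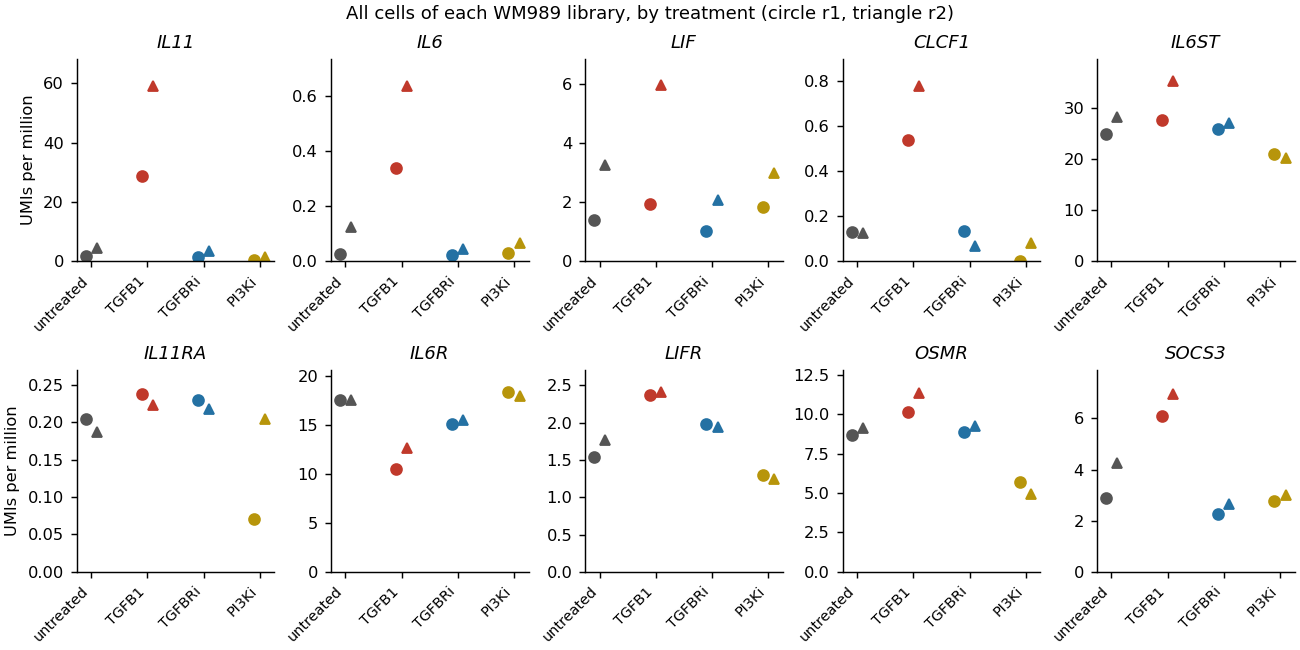
CPM of each member over all cells of a library in the treatment experiment, for untreated, TGFB1, TGFBRi and PI3Ki cells (circle, r1, and triangle, r2). IL11 stood at 28.7 and 59.0 CPM under TGFB1, above the 1.68 and 4.62 CPM of the untreated libraries, and at 0.34 and 1.32 CPM under PI3Ki.

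The treatment experiment asked how TGFB1, its receptor inhibitor and a PI3K inhibitor change these cells. In sums over all cells of a library, TGFB1 raised 7 of 9 members and lowered 1, IL6R, where 29.0% of 18389 genes changed. IL6 is left out of this count because it passed the filter on low counts through the TGFB1 libraries. Since the members were chosen with earlier results known, their counts against all genes are descriptions. The median log2 change was 0.51 over the 9 members and 0.01 over all genes. PI3Ki lowered 3 members, IL11, OSMR and IL6ST, where 12.7% of genes changed, and TGFBRi lowered 1, SOCS3, where 2.53% changed. Tests are edgeR's quasi-likelihood test on the summed counts with a term for the replicate number and Benjamini-Hochberg adjustment over all genes tested. All 3 comparisons share the untreated libraries. In such sums, more cells in a state and more RNA per cell cannot be told apart: primed cells were 2.26% and 4.47% of untreated cells, 29.1% and 31.3% under TGFB1, 2.26% and 4.32% under TGFBRi, and 0.65% and 1.21% under PI3Ki (r1 and r2).

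IL11 was the member that rose most under TGFB1. Untreated libraries held 1.68 and 4.62 CPM of IL11 in r1 and r2, TGFB1 libraries 28.7 and 59.0 CPM, TGFBRi libraries 1.32 and 3.49 CPM and PI3Ki libraries 0.34 and 1.32 CPM. The TGFB1 libraries stood above every other library, and r2 was above r1 in each condition. IL11 rose by a log2 change of 3.84 ± 0.11 (SE), 14.3-fold, under TGFB1 (adjusted p = 5.85e-17). It fell by 1.75 ± 0.16 on the log2 scale under PI3Ki (adjusted p = 1.69e-07), a call that was lost without the replicate term. The change under TGFBRi, -0.36 ± 0.14, did not pass (adjusted p = 0.23).

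IL6 and CLCF1 were near the detection limit in untreated cells. IL6 was at 0.03 and 0.12 CPM in untreated, 0.34 and 0.64 CPM in TGFB1, 0.02 and 0.05 CPM in TGFBRi and 0.03 and 0.07 CPM in PI3Ki libraries. The TGFB1 libraries were above the others, and no test is given for IL6. CLCF1 was at 0.13 and 0.12 CPM in untreated and 0.54 and 0.78 CPM in TGFB1 libraries, and rose by a log2 change of 2.35 ± 0.39 (adjusted p = 5.91e-05). LIF was at 1.40 and 3.27 CPM in untreated and 1.95 and 5.98 CPM in TGFB1 libraries, so the conditions overlapped across replicate numbers while each TGFB1 library was above the untreated library of its number. Its log2 change was 0.72 ± 0.14 (adjusted p = 0.00051), and the call was lost without TGFB1 r2, in G1 cells alone and without the replicate term.

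The receptor chains moved by less. IL6R, at 17.5 and 17.6 CPM in untreated libraries, was at 10.5 and 12.6 CPM under TGFB1 and fell by 0.62 ± 0.08 on the log2 scale (adjusted p = 1.17e-06). LIFR rose from 1.54 and 1.77 CPM to 2.36 and 2.41 CPM (log2 change 0.51 ± 0.13, adjusted p = 0.0046), a call lost under DESeq2 and without untreated r1. OSMR, at 8.71 and 9.15 CPM untreated, was at 10.2 and 11.3 CPM under TGFB1 (0.25 ± 0.08, adjusted p = 0.024). IL6ST, at 24.9 and 28.3 CPM untreated, was at 27.7 and 35.2 CPM (0.22 ± 0.07, adjusted p = 0.024), which overlaps between conditions. The calls of OSMR and IL6ST were lost under DESeq2, without the replicate term and without any 1 of untreated r1, untreated r2 and TGFB1 r2, and that of OSMR also without TGFB1 r1. IL11RA was at 0.20 and 0.19 CPM untreated and 0.24 and 0.22 CPM under TGFB1, with a log2 change of 0.22 ± 0.39 (adjusted p = 0.73). Within each state LIFR and OSMR were instead lower under TGFB1 in both replicates, though none of these changes passed. LIFR differed from untreated by -0.39 and -0.23 CPM in drug-susceptible and -0.44 and -3.4 CPM in primed cells (r1 and r2). OSMR differed by -1.12 and -0.735 CPM, and by -8.79 and -5.85 CPM, in that order. Primed cells were a larger share under TGFB1, and the part of that share in the rises over all cells was not tested.

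PI3Ki lowered OSMR from 8.71 and 9.15 CPM to 5.71 and 4.95 CPM, a log2 change of -0.65 ± 0.09 (adjusted p = 2.17e-05). IL6ST was at 21.0 and 20.2 CPM under PI3Ki, below both untreated libraries (-0.27 ± 0.07, adjusted p = 0.020), and this call was lost without PI3Ki r2, without either untreated library and without the replicate term. The other PI3Ki changes of members did not pass.

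SOCS3 was at 2.88 and 4.26 CPM in untreated libraries, at 6.08 and 6.96 CPM under TGFB1, at 2.25 and 2.65 CPM under TGFBRi and at 2.78 and 2.998 CPM under PI3Ki. It rose by a log2 change of 0.86 ± 0.11 under TGFB1 (adjusted p = 1.18e-06). Under TGFBRi it fell by 0.52 ± 0.12 (adjusted p = 0.016), a call lost under DESeq2, in G1 cells alone, without the replicate term and without TGFBRi r2 or untreated r2. SOCS3 was thus the one member that passed in opposite directions under the ligand and the receptor inhibitor, in comparisons that share their controls.

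**Figure D4:**
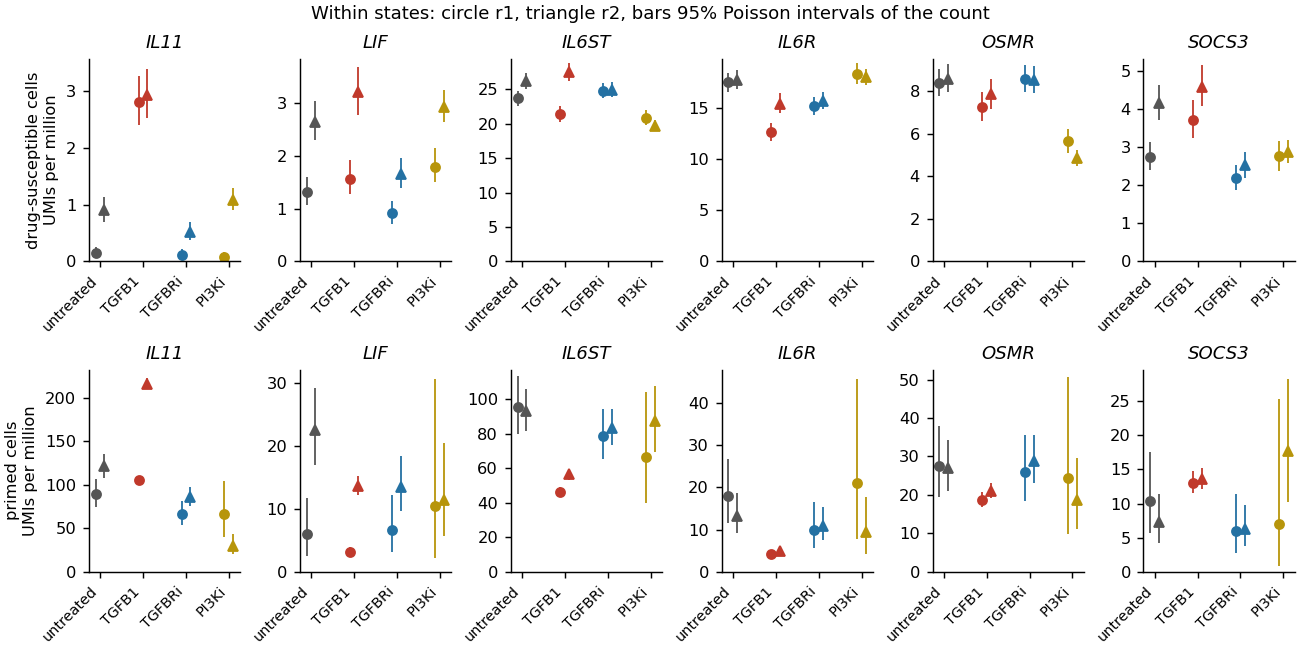
CPM of IL11, LIF, IL6ST, IL6R, OSMR and SOCS3 in primed and drug-susceptible cells of each library in the treatment experiment, with 95% Poisson intervals of the counts. IL6ST in primed cells was at 46.2 and 56.5 CPM under TGFB1 against 95.4 and 93.0 CPM untreated.

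Drug-susceptible cells were also compared by themselves. The cells compared differ in cluster: cluster 3 held 2182 of 3842 and 1619 of 3858 TGFB1 cells (r1 and r2) against 56 of 4058 and 59 of 3527 untreated ones, and cluster 6 held 1104 of 3837 and 1135 of 5709 PI3Ki cells against 129 and 39 untreated ones. There 8 members could be tested, IL6 and CLCF1 being too low. Under TGFB1 IL11 rose and IL6R fell, 2 of 8, where 14.9% of 17914 genes changed. IL11 was at 0.14 and 0.90 CPM in untreated and 2.81 and 2.95 CPM in TGFB1 drug-susceptible cells (log2 change 2.55 ± 0.39, adjusted p = 3.88e-05), a call lost without the replicate term. Cluster 3 gave 107 of the 168 and 113 of the 184 IL11 UMIs of the TGFB1 cells. In untreated r2, 42 of the 70 IL11 UMIs came from 1 cell. Without the cell holding the most UMIs in each library, a step chosen after seeing these values, IL11 stood at 0.13 and 0.36 CPM in untreated and 2.34 and 2.63 CPM in TGFB1 cells. The TGFB1 libraries also held more IL11 in all, and whether IL11 RNA free in the droplets took part in these values was not tested.

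IL6R in drug-susceptible cells went from 17.5 and 17.7 CPM untreated to 12.6 and 15.4 CPM under TGFB1, a fall of 0.35 ± 0.08 on the log2 scale (adjusted p = 0.0025), lost without TGFB1 r1 or untreated r1. The TGFB1 changes of SOCS3 (0.26, adjusted p = 0.16), LIF (0.25, adjusted p = 0.24) and IL6ST (-0.04, adjusted p = 0.77) did not pass in these cells. TGFBRi lowered SOCS3 (-0.53 ± 0.12, adjusted p = 0.017) and LIF (-0.60 ± 0.14, adjusted p = 0.019), 2 of 8, where 2.81% of genes changed. LIF was at 1.32 and 2.65 CPM untreated and 0.91 and 1.66 CPM under TGFBRi. Both calls were lost under DESeq2, in G1 cells alone, without the replicate term and without TGFBRi r2 or untreated r2. PI3Ki lowered OSMR from 8.38 and 8.58 CPM to 5.63 and 4.84 CPM (-0.61 ± 0.09, adjusted p = 4.55e-05), 1 of 8, where 12.1% changed. In cluster 0 alone OSMR stood at 8.19 and 9.28 CPM untreated and 5.45 and 4.90 CPM under PI3Ki. The IL11 change under PI3Ki was 0.38 ± 0.46 (adjusted p = 0.66) in drug-susceptible cells, where 81 of the 132 IL11 UMIs of PI3Ki r2 came from 1 cell.

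Within primed cells 7 members were tested, without IL6, CLCF1 and IL11RA. The cells compared differ in cluster: 98.2% and 97.1% of TGFB1 primed cells were in cluster 4, while 94.7% and 96.4% of untreated primed cells were in cluster 10. TGFB1 raised IL11 and lowered IL6ST and IL6R, 3 of 7, where 13.3% of 10930 genes changed. IL6R passed the filter on low counts, about 5.02 CPM here, through the other conditions and in no TGFB1 library. Its place in this count follows from those conditions. IL11 stood at 89.4 and 121 CPM in untreated and 106 and 216 CPM in TGFB1 primed cells. The values overlapped, with TGFB1 r1 below untreated r2, and each TGFB1 library was above the untreated library of its number (log2 change 0.65 ± 0.16, adjusted p = 0.0030). This call was lost under DESeq2, without the replicate term and without TGFB1 r2 or untreated r2. In cluster 10 alone IL11 was at 96.6 and 123.4 CPM untreated and 36.5 and 47.1 CPM under TGFB1, where 29 and 51 cells gave 13 and 29 UMIs.

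IL6ST went the opposite way from its sum over all cells. It was at 95.4 and 93.0 CPM in untreated and 46.2 and 56.5 CPM in TGFB1 primed cells, without overlap, a fall of 0.78 ± 0.14 on the log2 scale (adjusted p = 3.76e-05). In cluster 10 alone IL6ST was likewise lower under TGFB1, at 28.1 and 34.1 CPM against 93.4 and 92.9 CPM. IL6R was at 17.9 and 13.3 CPM in untreated and 4.13 and 4.92 CPM in TGFB1 primed cells, a fall of 1.64 ± 0.29 (adjusted p = 3.92e-05). Whether these changes differ between primed and drug-susceptible cells was not tested. SOCS3 (0.75, adjusted p = 0.073) and LIF (-0.72, adjusted p = 0.066) did not pass in primed cells under TGFB1.

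PI3Ki lowered IL11 in primed cells, 1 of 7 members, where 1.78% of genes changed. IL11 was at 66.6 and 30.1 CPM in the 25 and 70 primed cells of PI3Ki r1 and r2, below the untreated 89.4 and 121 CPM (-1.58 ± 0.28, adjusted p = 0.00043). In PI3Ki r1, 11 of the 19 IL11 UMIs came from 1 cell, and the call was lost without PI3Ki r2 and without the replicate term. Over all cells 43.6% and 44.1% were in G1 under PI3Ki against 34.0% and 32.7% untreated. In G1 primed cells alone IL11 overlapped between the conditions, at 61.8 and 20.1 CPM under PI3Ki (8 and 13 UMIs) and 43.0 and 84.0 CPM untreated. The part of the phases in this change was not tested. TGFBRi changed 0 of 7 members in primed cells by edgeR and 0 by DESeq2, where 0.375% of genes changed by edgeR. The DESeq2 result rests on 3937 of the 10930 genes, and how many of the 7 members are among them was not counted. An unadjusted edgeR p under 0.05 was found for 1 of 7, IL11, and for 944 of all 10930 genes. There IL11 was at 66.7 and 86.2 CPM, below both untreated libraries (-0.47 ± 0.19, unadjusted p = 0.016, adjusted p = 0.44 by edgeR's quasi-likelihood test).

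Most IL11 RNA came from primed cells in 7 of the 8 libraries. Primed cells held 91.6% and 81.1% of the IL11 UMIs in untreated r1 and r2, 92.7% and 96.3% under TGFB1, 91.7% and 85.6% under TGFBRi, and 79.2% and 18.0% under PI3Ki. In PI3Ki r2, where the share was lowest, 81 of the 132 IL11 UMIs of drug-susceptible cells came from 1 cell. For LIF the primed share was 7.3% and 21.4% untreated and 39.7% and 60.4% under TGFB1. LIF in untreated cells was thus mostly read in drug-susceptible cells, which were most of the untreated cells.

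**Figure D5:**
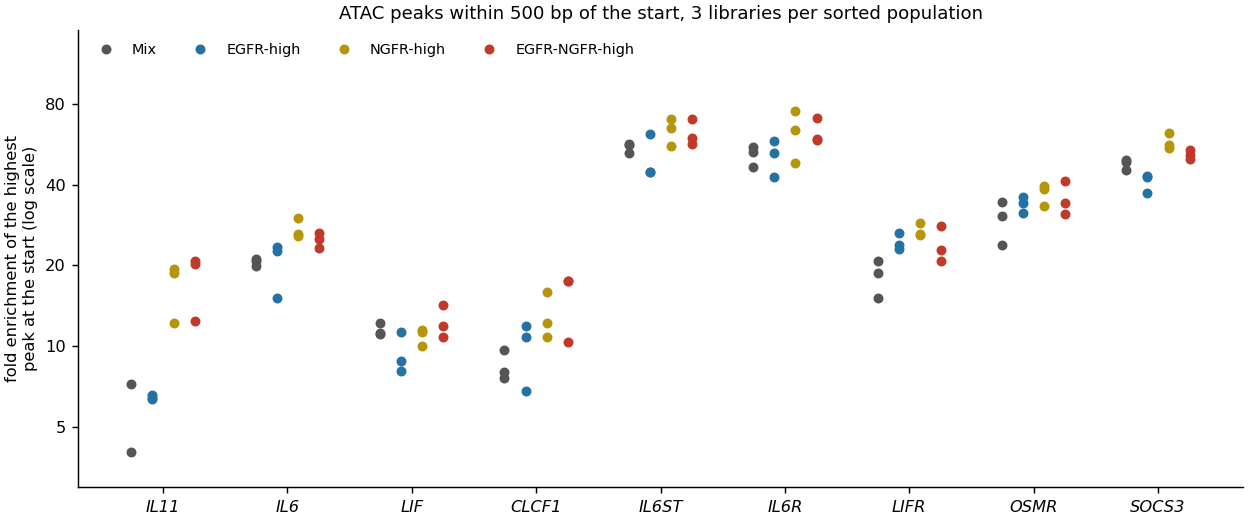
Fold enrichment on a log axis of the highest ATAC peak that overlaps the 500 bp on either side of the start of 9 members, in 3 libraries each of Mix, EGFR-high, NGFR-high and EGFR-NGFR-high cells. IL11 lay between 12.2 and 20.8 in the 6 NGFR-high and EGFR-NGFR-high libraries and at 7.26 or less in the others, with no peak in 1 Mix library, which has no point.

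Chromatin at the starts was compared between the sorted populations by the fold enrichment of the highest peak overlapping the 500 bp on either side of the start, as the study's peak caller gave it for each library. Of the 8 members with a peak in all 6 libraries, 5 were higher in each EGFR-NGFR-high library than in every Mix library, where 11% of 12433 gene starts were, and 0 were lower. They were IL6, CLCF1, IL6ST, IL6R and SOCS3, each with p = 0.1 by an exact permutation test, two-sided, the smallest that 3 against 3 libraries allow. Thus none of these differences could reach 0.05. The count of members against all starts is a description too, given how the members were chosen. LIF (p = 0.7), LIFR (p = 0.2) and OSMR (p = 0.3, exact permutation tests) overlapped between the populations, and IL11RA had no peak in any library at the start used, which lies 1728 bases from its RefSeq start. The ratio of the populations had a median of 1.055 over all starts.

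IL11 could not be tested, since a Mix library had no peak at its start. Its enrichment was 4.03 and 7.26 in the other Mix libraries, 6.40, 6.62 and 6.36 in EGFR-high, 19.5, 18.8 and 12.2 in NGFR-high, and 20.8, 20.3 and 12.4 in EGFR-NGFR-high libraries. NGFR-high and EGFR-NGFR-high cells lay together, above EGFR-high and Mix cells, with no overlap. In a comparison chosen after these values were seen, 3 of 9 members (IL11, IL6 and SOCS3) were higher in each NGFR-high than in every EGFR-high library, where 32.0% of 12427 starts were.

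The highest IL11 summits lay 310 to 383 bp after the start, within intron 1, which runs between exon 1 (0 to 159 bp after the start) and exon 2 (from 1522 bp). The 200 bases around them (hg38, chr19:55370017-55370216, minus strand, 247 to 446 bp after the start, 69.5% G or C) are printed since they hold the peak that separated the populations:
IL11 intron 1 peak: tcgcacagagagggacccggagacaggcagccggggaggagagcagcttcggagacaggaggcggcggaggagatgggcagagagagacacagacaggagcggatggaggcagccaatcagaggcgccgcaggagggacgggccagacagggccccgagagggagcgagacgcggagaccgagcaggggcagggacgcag
None of the 4 motifs named above was found in these letters, which are therefore all in lower case. AP-1 letters were found in 5.27% of promoter windows of 200 bases. A second summit in the 250 bases before the IL11 start, the promoter printed above, was called in 3 of 3 EGFR-NGFR-high libraries (enrichment 3.97 to 8.51) and 2 of 3 NGFR-high libraries (4.81 to 11.1), and in 0 of 3 EGFR-high and 0 of 3 Mix libraries. Libraries differed in the number of summits called over the genome. It ran from 213412 to 227576 in Mix, 216450 to 245019 in EGFR-high, 241836 to 255764 in NGFR-high and 226349 to 271153 in EGFR-NGFR-high libraries. The part of these numbers in the presence or absence of an IL11 peak or summit was not tested.

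The other ligands had smaller differences. IL6 stood at 21.1, 20.7 and 19.8 in Mix, 22.6, 15.1 and 23.5 in EGFR-high, 26.2, 25.8 and 30.1 in NGFR-high and 26.5, 25.0 and 23.3 in EGFR-NGFR-high libraries, a difference of 4.404 between the means of the last population and Mix. Its highest summits lay 589 to 620 bp before the start in EGFR-NGFR-high cells, in a peak that reached into the window. CLCF1 stood at 7.62, 8.01 and 9.68 in Mix and 17.6, 17.5 and 10.4 in EGFR-NGFR-high libraries, a difference of 6.72. With a window of 1000 bp CLCF1 was no longer higher in every library. LIF, at 12.4 ± 1.75 (SD, n = 3) against 11.5 ± 0.63, overlapped. Unlike IL11, IL6 had a peak in each Mix library.

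Among the receptor chains and SOCS3 peak height varied. LIFR ran from 15.1 to 28.9 over the 12 libraries, near the values of IL6, and OSMR from 23.7 to 41.4. IL6ST, IL6R and SOCS3 had taller peaks in every population. IL6ST was at 62.2 ± 7.13 (SD, n = 3) in EGFR-NGFR-high and 55.0 ± 2.29 in Mix libraries, IL6R at 62.8 ± 6.93 and 51.5 ± 4.43, and SOCS3 at 51.7 ± 2.12 and 47.8 ± 2.01. IL6R therefore had the taller peak in the sorted population that carries primed markers, while its RNA was lower in primed than in drug-susceptible cells. Sorted populations and clusters are different groupings of cells.

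The rest of the pathway was counted from lists that were chosen with earlier results of these data known, so the counts are descriptions. The shares over all genes were 12.0% at least 2-fold higher in primed WM989 cells and 19.0% 2-fold apart in either direction. Of 11 kinases, STATs and adaptors in WM989, 2 were at least 2-fold lower in primed cells, JAK2 at 3.51 against 7.68 CPM and STAT5A at 2.22 against 5.50 CPM. STAT3 itself stood at 34.8 against 27.1 CPM. Of 10 inhibitors and sheddases above 1 CPM, SOCS1 (26.0 against 1.13 CPM) and SOCS5 (73.2 against 12.3 CPM) were at least 2-fold higher and CISH (0.69 against 1.91 CPM) lower. Of 14 STAT3 response genes above 1 CPM, 11 were at least 2-fold higher in primed cells and 0 lower, among them CCND1 (4100 against 445 CPM), CEBPB (486 against 99.3 CPM), BCL3 (26.1 against 3.54 CPM) and IRF1 (45.8 against 6.27 CPM). Several of these are induced by other signals too. SERPINA3, also on this list, stayed below 1 CPM, with 3 of its 125 UMIs in primed cells. Other gp130 ligands of the lists stayed below 1 CPM in WM989, with OSM at 0.01 CPM in primed cells and IL27 at 0 in both states.

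In WM983B the STAT3 response genes stood closer, with 2 of 15 at least 2-fold higher in primed cells, where 2.87% of all genes were. They were IRF1 (50.3 against 22.3 CPM) and SERPINA3 (9.56 against 4.49 CPM). SOCS1 was again higher, at 3.83 against 1.63 CPM. None of the 11 kinases, STATs and adaptors was 2-fold apart there.

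Under TGFB1, 13 of 15 STAT3 response genes rose and 1 fell over all cells, with a median log2 change of 0.93, where 29.0% of all genes changed. SERPINA3, an acute-phase protease inhibitor, changed by 3.26 on the log2 scale, BCL6 by 1.34, IRF1 by 1.25 and JUNB by 1.22, and BCL2L1, a survival gene, fell by 0.39. Within drug-susceptible cells 7 rose and 2 fell of 15, with a median of 0.31, where 14.9% of all genes changed, in cells that differ in cluster as given above. Within primed cells 1 rose and 2 fell of 14, with a median of 0.04, where 13.3% changed. SERPINA3 changed by 3.55 in drug-susceptible cells. Its level was low, with 410 UMIs over all 40021 cells (0.60 CPM) and 345 in drug-susceptible cells (0.54 CPM). Of 11 kinases, STATs and adaptors, 4 rose over all cells, JAK1, SHC1, STAT3 and TYK2. Another 4 fell, among them JAK2, STAT5A and STAT5B. Of 11 inhibitors and sheddases 3 rose, SOCS1 by 1.04, SOCS5 by 0.77 and SOCS6 by 0.22, a share near the 29.0% of all genes. PECAM1 rose by 3.02 on the log2 scale over all cells.

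The inhibitors moved fewer of these genes. Over all cells PI3Ki raised 2 and lowered 5 of 15 STAT3 response genes, where 12.7% of all genes changed. TGFBRi raised TIMP1 (0.27) and lowered CEBPD (-0.39), 1 of 15 in each direction, where 2.53% changed. As a check of the treatments, 5 of 5 TGF-beta response genes rose under TGFB1 and 3 of 5 (SKIL, SMAD7 and PMEPA1) fell under TGFBRi, while 1 of 4 genes known to rise when PI3K is inhibited, KLHL24, rose under PI3Ki.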

How the data were processed

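Single-cell libraries were made with a 3′ droplet kit. Per the labels and the study's methods, the authors used Cell Ranger, deposited UMI counts per gene and cell, removed cells with few genes, with many genes (as likely doublets) or with high mitochondrial content, and assigned clusters, states and phases, with integration where they saw batch effects between replicates. No doublet caller was run here. ATAC reads were aligned by the authors with Bowtie2 2.3.4.1 to hg38, handled with SAMtools 1.1, and peaks were called per library with MACS2 2.1.1.20160309. The deposited peak tables hold fold enrichment as a ratio and a -log10 q value for each summit.

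Counts were summed over cells of a state, cluster or library and divided by the summed UMIs (CPM). State ratios were taken where a gene reached 1 CPM in at least 1 of the states, and 2-fold or more was taken as apart (in WM989, within both replicates). Treatments were compared on library sums with edgeR 4.0.16 (quasi-likelihood, TMM factors, filterByExpr, treatment plus replicate number, 3 residual degrees of freedom) in R 4.3.3, with Benjamini-Hochberg adjustment at 0.05. The filter kept genes above about 0.12 CPM in 2 libraries over all cells. The level was about 0.13 CPM in drug-susceptible cells and about 5.02 CPM in primed cells. The SE is the size of the log2 change divided by the root of the F statistic. Per the study's methods, the treatment steps were run on a pair of samples side by side. With the replicate term, p-values measure how far the treatment changes differed between these samples. A difference between r1 and r2 that all conditions share does not enter them. The deviations of same-numbered libraries correlated between conditions with Pearson r from 0.256 to 0.365 over 18389 genes, and the study's methods describe a shared starting well, so the replicate number was kept as a term.

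Peaks were matched to GENCODE v44 starts (canonical transcripts) where a peak overlapped the 500 bp on either side, and compared by exact permutation tests. Promoters were taken from RefSeq GRCh38.p14, where 8 of 10 members matched. Mitochondrial medians were 9.44 to 11.4% per library. The 10 members and the gene lists were chosen with earlier results of these data known. A gene of the lists is counted but not reported by name here. Genes named are the members, the listed pathway genes and, for IL11, IL6 and LIF each, the 3 genes with the most similar cluster pattern. Alternatives were DESeq2 1.42.0, RLE factors, no filter, no replicate term, G1 cells alone (not in primed cells), leaving out each library, mean CPM per cell, a 1000 bp window and a -log10 q minimum of 10. Other tools were limma 3.58.1, Python 3.11.15, numpy 2.4.6, scipy 1.17.1, pandas 2.3.3 and matplotlib 3.10.9. Columns of per-sample values not matched to a sample numbered 0.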

Additional observations from a re-analysis of the deposited data

Results flagged for a closer look

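Of the members, 2 had values on opposite sides of the untreated ones in the 2 states, in both replicates, and none of these changes passed the test. LIF under TGFB1 had a log2 change of -0.72 in primed and 0.25 in drug-susceptible cells, neither past the threshold (adjusted p = 0.066 and 0.24, edgeR). In primed cells LIF was at 5.96 and 22.5 CPM untreated and at 3.08 and 13.7 CPM under TGFB1, and in drug-susceptible cells at 1.32 and 2.65 CPM untreated and at 1.57 and 3.22 CPM under TGFB1. LIFR under PI3Ki had a log2 change of 0.87 in primed and -0.24 in drug-susceptible cells (adjusted p = 0.49 and 0.37, edgeR), with 3 and 16 UMIs of LIFR in the 25 and 70 primed cells. The difference between the states was not tested for either gene. How many of all genes show such a pattern was not counted, so these 2 cases are descriptions.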

How the results depend on the processing

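Of 22 called values of members under treatment, 9 stayed past the threshold under every alternative run, and over 282 recomputed values 237 kept direction and call, 45 lost the call and 0 changed sign. The counts of members called, which include IL6 under TGFB1 over all cells, moved as follows, and the causes were not tested. Without the replicate block they went from 2 to 1 (TGFB1, drug-susceptible), 1 to 0 (TGFBRi, all cells), 2 to 0 (TGFBRi, drug-susceptible), 3 to 1 (PI3Ki, all cells) and 1 to 0 (PI3Ki, primed). DESeq2 and G1 cells alone each gave 0 under TGFBRi, over all cells and in drug-susceptible cells, and no filter gave 2 over all cells. DESeq2 gave 6 and no block 6 of the 9 under TGFB1 over all cells. Leaving out 1 library gave 6 to 9 (TGFB1, all cells), 1 to 2 (TGFB1, drug-susceptible), 2 to 5 (TGFB1, primed), 0 to 2 (TGFBRi, all cells and drug-susceptible), 2 to 3 (PI3Ki, all cells), 1 to 3 (PI3Ki, drug-susceptible) and 0 to 1 (PI3Ki, primed). The fits without 1 library leave that condition with a lone library, assumed to vary like the others. Leaving out a replicate number gave 5 to 9 ATAC members against 5, with 9 without number 2, the replicate block gave 6 and the 1000 bp window gave 4, without CLCF1. Between states, the WM989 count was 8 to 9 without a replicate (IL6R passed 2-fold without r1), and the WM983B count was 4 against 5 with mean CPM per cell or G1 cells. Uncalled values that changed sign were IL11RA under TGFB1 over all cells (-0.008 without untreated r2, and -0.008 to 0.439 over the fits without 1 library), LIF under TGFB1 in drug-susceptible cells (-0.147 in G1 cells) and IL6ST there (0.013 in G1 cells, and -0.19 to 0.089 over the fits without 1 library, 0.089 without TGFB1 r1). Without the block the genes called fell from 5324 to 3599 (TGFB1, all cells), 466 to 40 (TGFBRi, all cells), 2328 to 649 (PI3Ki, all cells), 2665 to 1189, 503 to 47 and 2170 to 570 (drug-susceptible, same order), and 41 to 9 and 195 to 87 (TGFBRi and PI3Ki, primed). G1 cells alone gave 148 and 210 for TGFBRi (all, drug-susceptible), and no filter gave 748 over all cells. Without a filter on CPM, 3822 genes were higher and 2446 lower in primed WM989 cells, against 1587 and 917, and 3984 and 2464 in WM983B, against 395 and 189 (734 and 251 in G1 cells). Without 1 library the genes called ran, in the order TGFB1, TGFBRi, PI3Ki, from 3164 to 6377, 168 to 1146 and 719 to 3298 over all cells, 988 to 3722, 206 to 1247 and 632 to 3286 in drug-susceptible cells, and 584 to 1726, 17 to 63 and 96 to 239 in primed cells. DESeq2 gave 326 (TGFBRi, drug-susceptible), 693 and 16 (TGFB1 and TGFBRi, primed).

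There were 25 to 271 primed cells per library outside TGFB1, and 11 of the 19 IL11 UMIs of primed PI3Ki r1 came from 1 cell. The 3 libraries per sorted population do not allow an exact permutation p under 0.05.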

Other observations

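By pattern over the 11 WM989 clusters, among 7021 genes that reached 20 CPM in a cluster, the genes most like IL11 were ZYX, a focal adhesion protein, IGFN1 and SERPINB2 (Pearson r of log2(CPM + 1) 0.996, 0.995 and 0.995). Over the 13 clusters of the treatment experiment r was 0.951, 0.955 and 0.705. The genes most like IL6 were FGF7, a growth factor, CCL5, a chemokine, and AC016831.5 (r of 0.997, 0.997 and 0.996, and 0.401, 0.900 and 0.273 in the treatment experiment). Those most like LIF were STX1A, DRAM1 and SLC35E4 (r of 0.994, 0.991 and 0.991, and 0.819, 0.816 and 0.875). Clusters of 1 experiment share libraries, and 3 primed against 8 drug-susceptible clusters carry much of each correlation, so these are descriptions.

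IL6 stood at different levels in untreated primed WM989 cells of the 2 WM989 experiments. It was at 7.09 and 30.7 CPM in r1 and r2 of the first experiment, and in the third at 0.78 CPM, from 3 UMIs in 259 cells. IL11 in the same cells was at 107 and 134 CPM in the first and 110.02 CPM in the third. The experiments were counted separately, and this difference was not tested.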
